A study of Homo sapiens with 24 samples.

Results

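Mediator is the multi-subunit complex that carries signals from DNA-bound transcription factors to RNA polymerase II. Its head and middle modules contact the polymerase, its tail module receives most activators, and MED14 is the scaffold that holds them together. A separable kinase module, made of CDK8 or CDK19 with cyclin C (CCNC), MED12 or MED12L, and MED13 or MED13L, docks onto the core reversibly, where it blocks polymerase binding and phosphorylates transcription factors. The genes were taken by symbol from the protein-coding rows of the count table, as MED followed by digits with or without a final L, or CDK8, CDK19 or CCNC. This gave 33 of the 14493 genes in the table, 7 of the kinase module and 26 of the core, and all 33 passed the filter on low counts in every comparison.

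RNA-seq was performed in SKBR3, a HER2-positive breast cancer cell line, with 3 libraries in each of 8 groups. Cells made senescent by therapy (TIS) were collected at day 7 after a refeed at day 3, and had received the acetyl-CoA carboxylase inhibitor ND-646 (250 nmol/L), the fatty acid synthase inhibitor TVB-3166 (250 nmol/L), the DNA-breaking drug bleomycin (10 µmol/L), the topoisomerase II poison doxorubicin (10 nmol/L), the CDK4/6 inhibitor palbociclib (1 µmol/L) or the Aurora A inhibitor alisertib (500 nmol/L). ND-646 and TVB-3166 cells are called FASTIS, for senescence induced by blocking fatty acid synthesis. Untreated proliferative cells were collected at day 0 and at day 7. Their labels name no refeed, so drug and refeed cannot be told apart in comparisons with them. Doses were not matched between drugs, and each drug was compared with the same 3 day 0 libraries, so the 6 comparisons share their controls. Library totals ranged from 29405121 to 44316330 counts. The lowest count of any member was 9, for MED12L, and 59 for the other members. Levels are given as CPM, counts scaled to a common library size by TMM normalization, and changes as log2 fold changes. Each p comes from the quasi-likelihood test of edgeR, is adjusted over all genes tested by the method of Benjamini and Hochberg, and counts as a call under 0.05. In bulk RNA, fewer cells that express a gene and less RNA per cell cannot be told apart. No source says that replicates came from separate cultures, so p-values measure the spread between libraries, which may be technical.

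The libraries carried the markers of the line: ERBB2, the HER2 gene, averaged 5687 to 8265 CPM by group, and all 6 epithelial markers were present. Of 8 markers of immune, stromal and endothelial cells, 3 had a row in the table (CD68, CDH5 and COL1A1), and their summed level was 19.7 to 24.7 CPM at day 0, against 64.0 to 73.1 CPM in ND-646, 42.1 to 51.0 CPM in TVB-3166, 76.1 to 92.4 CPM in bleomycin, 54.6 to 64.8 CPM in doxorubicin and 55.5 to 65.1 CPM in palbociclib cells. In alisertib and day 7 cells it was 22.6 to 24.6 and 21.0 to 23.3 CPM. Their part in the results was not tested.

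ND-646 replicate 1 stood apart from its group by transcript length. Its deviation from the other ND-646 libraries had a Spearman correlation with transcript length of -0.693 across 11353 genes and -0.803 across the 33 members, described across genes, which are not independent replicates. The median deviation was 0.600 for transcripts under 2 kb and -0.547 for those over 6 kb. Most of the long Mediator genes carried this deviation: MED1 was at 466 CPM in that library against 1042 and 1036 CPM in the other ND-646 libraries, MED13 at 34.1 against 78.0 and 77.2 CPM, and MED12 at 16.4 against 37.7 and 38.3 CPM. Of the 8 members with transcripts over 6 kb, MED12, MED12L, MED13, MED13L, MED1 and MED14 were lower in that library, with log2 differences of -0.61 to -1.25, while MED28, the longest, differed by -0.09 and CDK19 by 0.23. ND-646 calls against day 0 are therefore also given without that library. Day 0 replicate 1, shared by all 6 day 0 comparisons, also differed from its group, though little by length (Spearman correlation 0.0745). The chi-square of its counts, per degree of freedom, was 171 and 172 against day 0 replicates 2 and 3, and 18.3 between those. For ND-646 replicate 1 it was 146 and 159, and 13.4 between replicates 2 and 3. Day 0 replicate 1 is among the libraries left out in turn below.

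**Figure D1:**
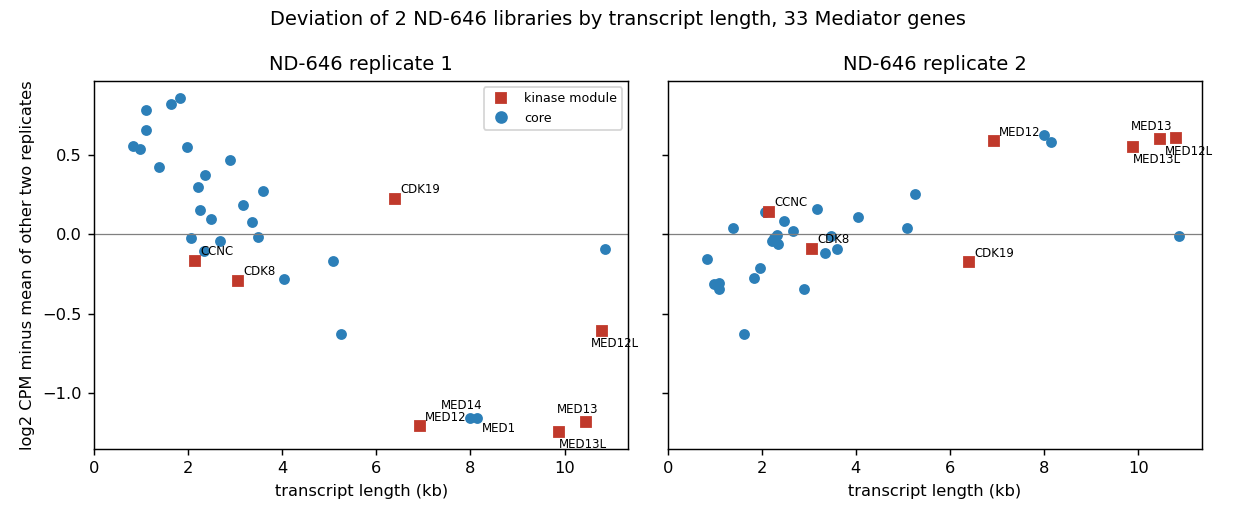
Each point is 1 of the 33 Mediator genes, with transcript length (kb) on the x axis and, on the y axis, the log2 CPM of ND-646 replicate 1 (left) or replicate 2 (right) minus the mean of the other ND-646 replicates. Red squares are kinase module genes; in replicate 1, MED12, MED13, MED13L, MED1 and MED14 lie more than 1 log2 unit below the other replicates, and short core genes lie above them.

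The 4 kinase module genes that were lower in FASTIS than in the other TIS groups are shown with the 250 bases upstream of their start, so that their sequence can be read beside their values. The bases come from the RefSeq promoter table (GRCh38.p14), in which 25 of the 33 members had an entry, and capitals mark a motif letter match. MED12L lies at chr3:151085414-151085663 on the plus strand, MED12 at chrX:71118346-71118595 on the plus strand, CDK8 at chr13:26253879-26254128 on the plus strand and CCNC at chr6:99568815-99569064 on the minus strand.
MED12L: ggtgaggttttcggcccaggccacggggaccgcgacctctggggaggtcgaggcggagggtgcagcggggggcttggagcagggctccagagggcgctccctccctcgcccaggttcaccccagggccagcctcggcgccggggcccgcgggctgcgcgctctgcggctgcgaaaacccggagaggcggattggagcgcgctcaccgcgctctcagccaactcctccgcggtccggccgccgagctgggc
MED12: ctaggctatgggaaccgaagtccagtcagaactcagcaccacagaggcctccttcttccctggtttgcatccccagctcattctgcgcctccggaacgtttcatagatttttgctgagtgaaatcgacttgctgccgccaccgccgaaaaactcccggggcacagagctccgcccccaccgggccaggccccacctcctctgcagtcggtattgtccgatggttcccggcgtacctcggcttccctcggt
CDK8: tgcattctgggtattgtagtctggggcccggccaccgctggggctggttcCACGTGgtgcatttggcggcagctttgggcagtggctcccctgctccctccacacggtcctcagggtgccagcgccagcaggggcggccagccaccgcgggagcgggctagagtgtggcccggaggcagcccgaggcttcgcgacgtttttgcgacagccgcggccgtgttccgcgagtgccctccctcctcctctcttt
CCNC: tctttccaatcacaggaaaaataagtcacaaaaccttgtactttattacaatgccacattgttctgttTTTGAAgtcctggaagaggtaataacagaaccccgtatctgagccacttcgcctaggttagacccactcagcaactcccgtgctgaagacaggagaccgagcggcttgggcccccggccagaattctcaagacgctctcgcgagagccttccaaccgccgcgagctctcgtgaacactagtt
The MED12L window had a GC content of 75.6% and 29 CpG dinucleotides, against a median of 64.8% and 21 over 10793 promoters of genes in the table. The MED12 window had 60.4% and 17, the CDK8 window 68.8% and 21, and the CCNC window 50.4% and 13. Searched on both strands, the E-box CACGTG stood in the CDK8 window and in that of MED13L, and in 9.08% of all promoters. The cell cycle homology region TTTGAA stood in the CCNC window and in those of CDK19 and MED7, and in 8.26% of all promoters. The ETS motif CCGGAAG stood in 5 members' windows (MED7, MED15, MED17, MED18 and MED31), none of the kinase module, and in 16.1% of all promoters. The SP/KLF motif GGGGCGGGG stood in 5 members' windows, CDK19 among them, and in 26.6% of all promoters. None of these motifs stood in all 4 windows.

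In proliferating cells at day 0 the members spanned a wide range per length. MED1, the subunit that binds nuclear receptors, was highest, at 146 ± 24.8 CPM per kb of transcript (SD, n = 3), followed by the tail subunit MED24 at 97.3 ± 9.04 and by CCNC at 34.6 ± 3.40 CPM per kb. MED1 (GRCh37, chromosome 17, 37560538 to 37607525) and MED24 (chromosome 17, 38175350 to 38217468) lie on the chromosome that also carries ERBB2. So do MED9, MED11, MED13 and MED31, farther away, at positions from 17380308, 4634723, 60019966 and 6546631. They stood at 9.86, 13.4, 5.31 and 2.02 CPM per kb, and a link between position and level was not tested. MED8 and MED29 followed, at 22.7 ± 0.796 and 20.7 ± 1.69 CPM per kb. MED12L, the paralog of MED12, was the lowest of all 33, at 0.199 ± 0.0407 CPM per kb, against 7.20 ± 1.69 for MED12. MED13 and MED13L stood close together, at 5.31 ± 0.479 and 4.39 ± 0.255 CPM per kb, and CDK8 was higher per length (8.57 ± 0.395) than CDK19 (3.35 ± 0.263). The median was 5.31 CPM per kb for the kinase module and 11.7 for the core.

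Time in culture was compared first, since all drug groups were collected at day 7. Between untreated day 7 and day 0, 0 members were called higher and 0 lower by edgeR, and 0 and 0 by DESeq2, where 0.389% of 13636 genes were called higher and 0.198% lower. At an unadjusted p under 0.05 there were 2 higher and 7 lower. The unadjusted differences are not small for every gene. MED12L was at 1.73, 2.11 and 2.60 CPM at day 0 and at 2.73, 3.39 and 3.50 CPM at day 7, without overlap (log2 fold change 0.59 ± 0.23 SE, adjusted p = 0.163). CDK8 was at 25, 26.3 and 27.5 CPM at day 0 and at 20.9, 21.7 and 22.8 CPM at day 7, also without overlap (-0.26 ± 0.10, adjusted p = 0.157). Calls against day 7 are therefore given beside those against day 0 for the genes described.

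MED12L showed the largest change of any member. Against day 0, its transcript was called lower in both FASTIS groups and in no other TIS group. The ND-646 libraries were at 0.383, 0.715 and 0.526 CPM and the TVB-3166 libraries at 1.00, 0.664 and 0.923 CPM, from 9, 20 and 15 counts and 30, 21 and 27 counts. All 6 lay below the 3 day 0 libraries, which held 68, 66 and 88 counts. The log2 fold change against day 0 was -1.97 ± 0.35 in ND-646 (adjusted p = 0.00252) and -1.31 ± 0.28 in TVB-3166 (adjusted p = 0.00238). Both calls held with each library left out in turn, and without ND-646 replicate 1 the ND-646 value was -1.78 (adjusted p = 0.00189). Against untreated day 7 the difference was larger, at -2.54 in ND-646 (adjusted p = 0.000572) and -1.88 in TVB-3166 (adjusted p = 8.8e-05). MED12L is also among the genes that the study named from these libraries, so its fall here is not independent evidence.

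The other TIS groups held more MED12L. Bleomycin libraries were at 1.71, 2.36 and 2.77 CPM, doxorubicin at 2.43, 2.22 and 3.84, palbociclib at 1.71, 1.97 and 1.94, and alisertib at 2.42, 2.93 and 3.49 CPM. Each of these groups overlapped day 0, and none was called against it (adjusted p from 0.151 to 0.792). Against day 7, palbociclib was lower by this test (-0.76, adjusted p = 0.0116).

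**Figure D2:**
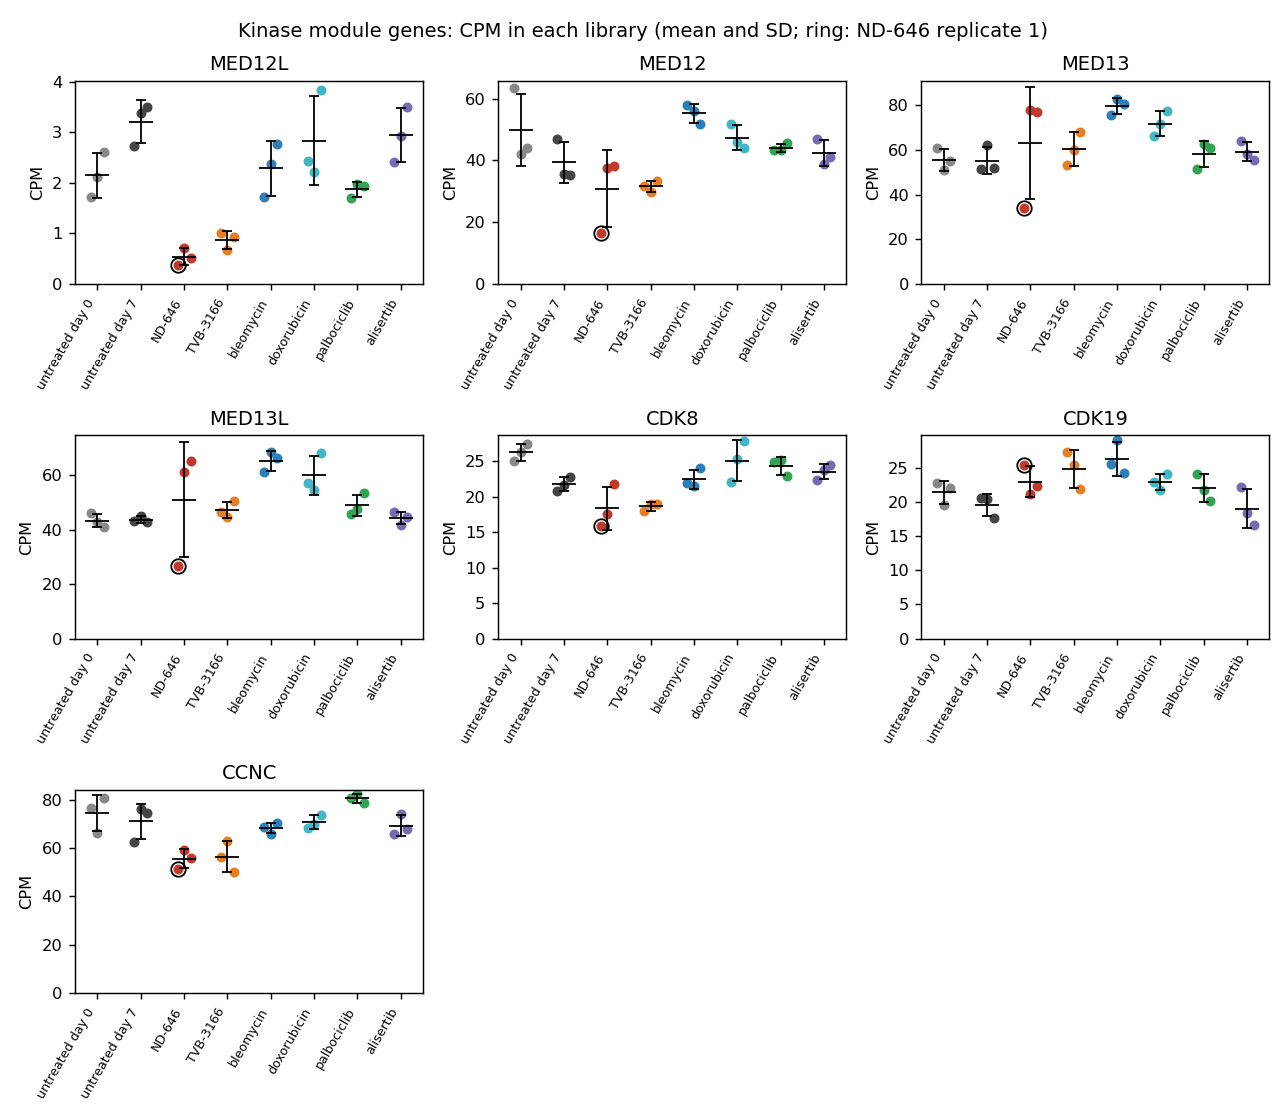
CPM of the 7 kinase module genes (y axis, from 0, one scale per gene) in each library of the 8 groups (x axis); points are libraries, horizontal bars the mean and whiskers the SD of 3, and the ring marks ND-646 replicate 1. MED12L is lowest in the ND-646 and TVB-3166 libraries, all at or below 1.00 CPM, while MED13 and MED13L are high in bleomycin and doxorubicin and in 2 of 3 ND-646 libraries.

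CDK8 and its partner cyclin C, the catalytic pair of the kinase module, were also lower in FASTIS than at day 0. CDK8 was at 15.9, 17.5 and 21.8 CPM in ND-646 and at 18, 19.0 and 19.0 CPM in TVB-3166, all below the lowest day 0 library at 25 CPM. All bleomycin and alisertib libraries also lay below day 0, though CDK8 was not called there, so lying below day 0 is not particular to FASTIS. Its log2 fold change was -0.52 ± 0.17 in ND-646 (adjusted p = 0.0368) and -0.49 ± 0.11 in TVB-3166 (adjusted p = 0.00232). The ND-646 call was lost when any day 0 library or ND-646 replicate 2 was left out, with adjusted p up to 0.112, and it was -0.42 without ND-646 replicate 1 (adjusted p = 0.0236). Against day 7, where CDK8 started lower, neither group was called (-0.24, adjusted p = 0.267, and -0.22, adjusted p = 0.0807).

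CCNC was at 76.6, 66.4 and 80.5 CPM at day 0, at 51.4, 59.3 and 56.1 CPM in ND-646 and at 56.1, 62.9 and 50.3 CPM in TVB-3166. Neither FASTIS group overlapped day 0. The log2 fold change was -0.43 ± 0.14 in ND-646 (adjusted p = 0.0443) and -0.39 ± 0.11 in TVB-3166 (adjusted p = 0.0111). Leaving out any library other than ND-646 replicate 1 ended the ND-646 call (adjusted p up to 0.148; without replicate 1 it was -0.37, adjusted p = 0.0232), and leaving out TVB-3166 replicate 3 ended the TVB-3166 call (adjusted p = 0.0625). Against day 7 it was called in TVB-3166 (-0.32, adjusted p = 0.0231) and not in ND-646 (-0.35, adjusted p = 0.076). An exon of TSTD3 on the opposite strand covers 15.8% of the CCNC transcript, and it is not stated whether counting used the strand.

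CDK19, the paralog that can replace CDK8, was not called in any drug group against day 0 (log2 fold changes from -0.18 to 0.30). It was at 22.8, 19.5 and 22.0 CPM at day 0, at 25.4, 21.1 and 22.3 CPM in ND-646 and at 27.3, 25.4 and 21.8 CPM in TVB-3166, and both groups overlapped day 0. Against day 7 it rose in TVB-3166 (0.35, adjusted p = 0.0217) and in bleomycin (0.44, adjusted p = 0.0165). As a description, CDK19 made up 44.9% of the CDK8 and CDK19 CPM at day 0 (range 42.6% to 47.6%), 55.6% in ND-646 (50.6% to 61.5%) and 57.0% in TVB-3166 (53.5% to 60.3%). Neither FASTIS range overlaps that of day 0. In bleomycin the share was 53.8% (50.1% to 57.5%) and in the other groups 44.5% to 47.8% on average. Paralogs can share reads, and how shared reads were counted is not given in the sources used here.

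MED12, which activates the kinase, was lower in TVB-3166 and not called elsewhere against day 0. Day 0 libraries were at 63.3, 42.2 and 44.1 CPM and TVB-3166 libraries at 31.9, 29.8 and 33.4 CPM, without overlap (-0.65 ± 0.15, adjusted p = 0.00301). Against day 7 the difference was -0.31 (adjusted p = 0.0458). In ND-646 the value was -0.70 ± 0.32 (adjusted p = 0.113), and -0.40 without ND-646 replicate 1 (adjusted p = 0.0774). Bleomycin cells were at 58.1, 55.9 and 51.9 CPM, which overlapped day 0 and lay above all day 7 libraries (0.50 against day 7, adjusted p = 0.0109). MED12L made up 4.33% of the MED12 and MED12L CPM at day 0, 1.83% in ND-646 and 2.64% in TVB-3166.

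MED13 and MED13L, which tether the kinase to the core, were called higher against day 0 in bleomycin and doxorubicin, and in ND-646 only without replicate 1. MED13 was at 60.9, 50.9 and 55.0 CPM at day 0, at 75.9, 82.8 and 80.7 CPM in bleomycin and at 66.2, 71.7 and 77.6 CPM in doxorubicin. Neither group overlapped day 0. The log2 fold change was 0.53 ± 0.10 in bleomycin (adjusted p = 0.00243) and 0.38 ± 0.10 in doxorubicin (adjusted p = 0.0101). With all 24 libraries in 1 fit, the doxorubicin call was lost (adjusted p = 0.116).

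MED13L was at 46.1, 43.0 and 41.1 CPM at day 0, at 61.2, 68.5 and 66.4 CPM in bleomycin and at 57.4, 54.7 and 68.2 CPM in doxorubicin, again without overlap. It rose by 0.60 ± 0.10 in bleomycin (adjusted p = 0.00118) and by 0.48 ± 0.11 in doxorubicin (adjusted p = 0.00441). Both genes were called against day 7 as well, with log2 fold changes of 0.55 and 0.60 in bleomycin and 0.40 and 0.48 in doxorubicin. The ratio of the paralogs moved little: MED13L made up 42.8% to 45.7% of their CPM on average in every group.

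The ND-646 libraries differed among themselves for this pair. With all libraries, MED13 was at 34.1, 78.0 and 77.2 CPM and MED13L at 26.7, 61.3 and 65.4 CPM, and neither was called (0.18, adjusted p = 0.651, and 0.23, adjusted p = 0.567). Without ND-646 replicate 1, both were higher than at day 0 (MED13 0.48, adjusted p = 0.00507; MED13L 0.54, adjusted p = 0.00204). In TVB-3166, palbociclib and alisertib cells neither was called, with log2 fold changes from 0.03 to 0.17.

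Counted as a module against day 0, 3 of 7 kinase genes were called lower in ND-646 (CCNC, CDK8 and MED12L) and 4 of 7 in TVB-3166 (with MED12), and 0 higher in either, where 18.8% and 27.7% of all genes tested were called lower and 19.1% and 27.4% higher. In bleomycin and in doxorubicin 2 of 7 were called higher (MED13 and MED13L) and 0 lower, where 24.1% and 23.7% of genes were called higher and 25.3% and 24.8% lower. In palbociclib and alisertib, 0 of 7 were called in either direction by edgeR and by DESeq2, and 0 at an unadjusted p under 0.05, where 26.0% and 17.7% of genes were called higher and 27.2% and 19.6% lower. The median log2 fold change of the 7 was lowest in ND-646 (-0.43), then in TVB-3166 (-0.39), and lay between -0.11 and 0.15 in the other drugs, and that of all genes lay between -0.01 and 0.02. Without ND-646 replicate 1 the ND-646 median was -0.37, with 3 genes called lower and 2 higher, where 27.8% of genes were called lower and 27.1% higher. Against day 7, 1 of 7 was called lower in ND-646 (MED12L), and 3 lower (CCNC, MED12 and MED12L) and 1 higher (CDK19) in TVB-3166, with medians of -0.24 and -0.22.

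Per library, the mean log2 CPM of the kinase genes minus that of the core genes lay between -0.24 and -0.05 at day 0 and between -0.15 and -0.01 at day 7. It was -0.38 to -0.32 in TVB-3166, below every untreated library, and 0.15 to 0.27 in bleomycin and 0.10 to 0.33 in doxorubicin, above every untreated library. In ND-646 it was -0.99, -0.24 and -0.20, of which the first is replicate 1. Set against day 0, the value in TVB-3166 turned on 1 gene: with MED12L left out it was 0.37 to 0.43, inside the day 0 range of 0.35 to 0.61. It then still lay below every library of the other TIS groups, the lowest of which was at 0.44, in alisertib. In ND-646 it was then -0.15, 0.57 and 0.68, with replicate 1 below that range and replicate 3 above it. Bleomycin (0.81 to 0.86), doxorubicin (0.70 to 0.84) and palbociclib (0.64 to 0.72) were then above that range.

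By the rule the study used, a fold of at least 2 with an unadjusted p under 0.05, 1 member was called lower in ND-646 and 1 in TVB-3166 (MED12L in both) and 1 in palbociclib (MED18), and 0 were called higher in any drug. Over all genes that rule called 9.29% lower and 11.4% higher in ND-646, 6.75% and 10.9% in TVB-3166, 7.3% and 11.5% in bleomycin, 2.9% and 10% in doxorubicin, 6.15% and 10.5% in palbociclib, and 1.44% and 6.47% in alisertib. The members' changes are therefore mostly smaller than 2-fold. Between untreated day 7 and day 0 the rule called 0 members, with 1.66% of genes higher and 0.33% lower, and between TVB-3166 and ND-646 also 0, with 2.13% and 1.01%. In FASTIS against the other TIS groups it called MED12L alone, with 4.78% of genes lower and 2.36% higher.

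With untreated day 7 in place of day 0, members called higher and lower numbered 1 and 4 in ND-646 (17.2% and 17.1% of genes), 3 and 7 in TVB-3166 (25.4% and 26.1%), 8 and 5 in bleomycin (22.4% and 23.2%), 5 and 4 in doxorubicin (21.9% and 21.5%), 3 and 6 in palbociclib (22% and 22.9%), and 1 and 1 in alisertib (9.55% and 9.49%). The kinase module held 4 of the 8 higher calls in bleomycin, MED12, MED13, MED13L and CDK19, with log2 fold changes of 0.50, 0.55, 0.60 and 0.44. It held both MED13 and MED13L in doxorubicin, and 0 of the higher and 1 of the lower calls, MED12L, in palbociclib.

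In the core, the median log2 fold change lay between -0.14 and -0.08 in all 6 drug groups. The core genes called numbered 1 higher and 3 lower in ND-646, 2 and 7 in TVB-3166, 1 and 6 in bleomycin, 1 and 8 in doxorubicin, 1 and 7 in palbociclib, and 2 and 6 in alisertib. Over the 6 drugs, 17.7% to 27.4% of all genes were called higher and 18.8% to 27.7% lower. Of the 26 core genes, 13 (50%) were not called in any drug group, 7 (26.9%) were called lower in 3 or more and 1, MED23, higher in 3 or more, and none was called in both directions. Over the 13446 genes tested in all 6 comparisons, which share their day 0 libraries, those shares were 18.2%, 26.7% and 24.8%, and 4.02% were called in both directions. The share of core genes lower in 3 or more drugs is thus near that of all genes. Against day 7, 10 core genes were not called in any drug and 4 were lower in 3 or more (15.4%, against 21.6% of 13568 genes).

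**Figure D3:**
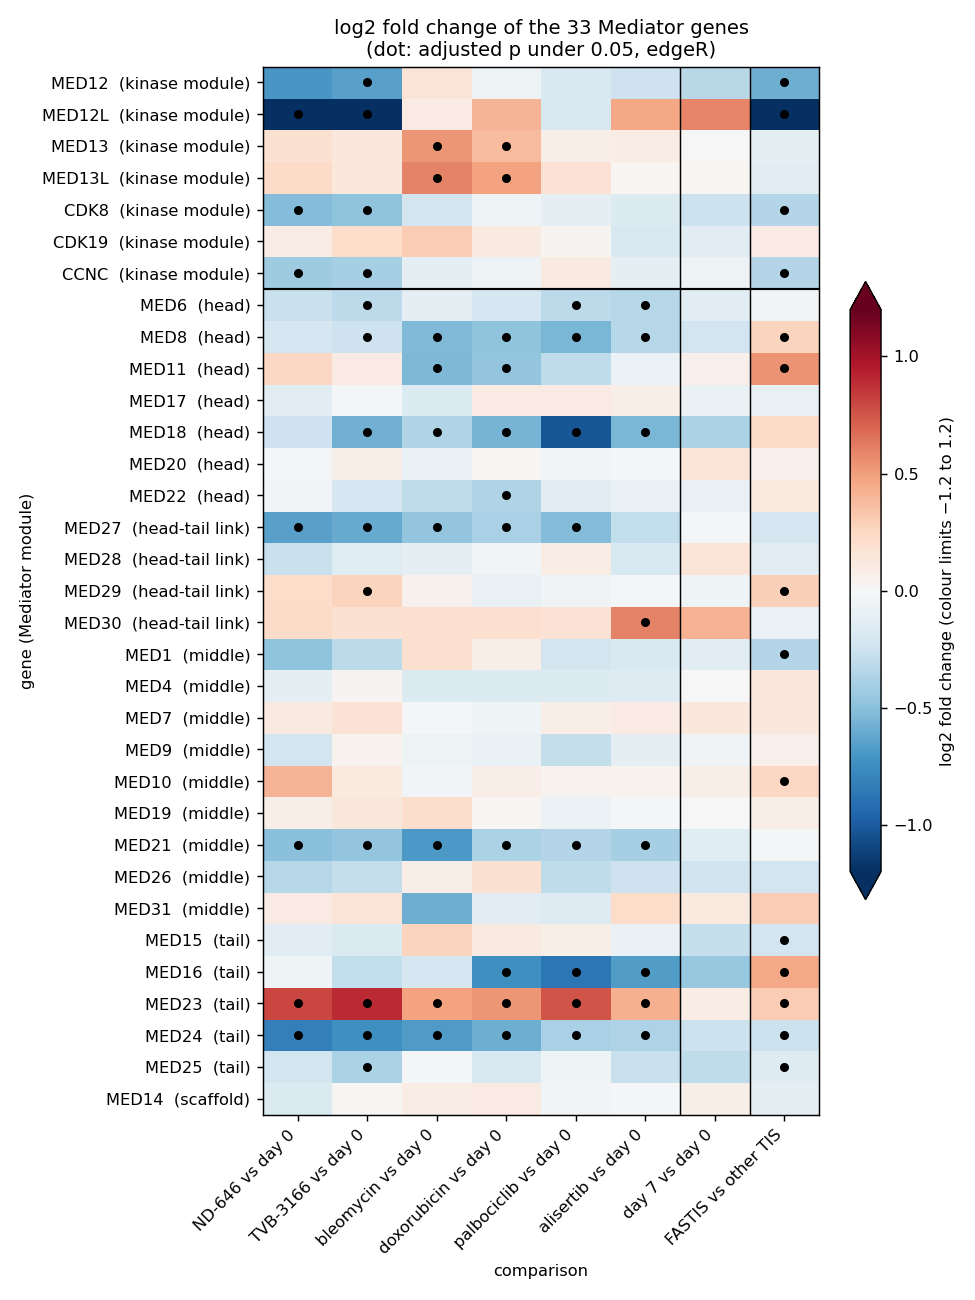
Colour gives the log2 fold change of each of the 33 Mediator genes (rows, with their module) in 8 comparisons (columns), red for higher and blue for lower, and a dot marks an adjusted p under 0.05. MED12L falls past the colour limit in the ND-646, TVB-3166 and FASTIS columns, MED23 is red and MED24 and MED21 are blue in all 6 drug columns, and the day 7 column has no dot.

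In the tail, MED23 rose and MED24 fell in every drug group, although both bind activators in the same module. Over the 13446 genes tested in all 6 comparisons with day 0, 6.51% were called higher in all 6 and 7.79% lower. In the core those shares were 3.85% and 7.69%, so such recurrence is not particular to the members. MED23, through which ELK1 recruits Mediator, was at 30.2, 32.8 and 40.3 CPM at day 0 and at 59.6, 66.9 and 64.5 CPM in TVB-3166. ND-646 libraries were at 43.9, 66.0 and 69.9 CPM and palbociclib libraries at 51.1, 56.2 and 66.6 CPM. The lowest drug library, at 42.0 CPM in alisertib, lay above the highest at day 0.
The log2 fold change of MED23 was 0.80 ± 0.21 in ND-646 (adjusted p = 0.0167), 0.89 ± 0.12 in TVB-3166 (8.47e-05), 0.75 ± 0.13 in palbociclib (0.000887), 0.53 ± 0.12 in doxorubicin (0.00506), 0.48 ± 0.13 in bleomycin (0.0134) and 0.42 ± 0.12 in alisertib (0.0211). It was called higher in all 6 against untreated day 7 too, from 0.37 to 0.82, as were 3.08% of 13568 genes. Leaving out 1 library ended the call in some fits for ND-646 (day 0 replicates 1 and 2, ND-646 replicates 2 and 3), bleomycin (day 0 replicate 2) and alisertib (alisertib replicates 2 and 3, day 0 replicate 2), with adjusted p up to 0.0717, 0.0531 and 0.0986. Without ND-646 replicate 1 its ND-646 value was 0.98.

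MED24, one of the highest members, was at 369, 340 and 306 CPM at day 0 and at 286, 274 and 284 CPM at day 7. It was at 191, 192 and 195 CPM in ND-646, at 200, 206 and 204 CPM in TVB-3166 and at 247, 261 and 265 CPM in palbociclib. All 18 drug libraries lay below all day 0 libraries. The log2 fold change ran from -0.82 ± 0.14 in ND-646 (adjusted p = 0.00221) and -0.73 ± 0.10 in TVB-3166 (9.88e-05) through -0.68 in bleomycin and -0.59 in doxorubicin to -0.39 in palbociclib and -0.37 ± 0.09 in alisertib (0.0108). All 6 calls held with each library left out, and without ND-646 replicate 1 the ND-646 value was -0.81. Against day 7 the fall was smaller and was called in 4 drugs, from -0.31 to -0.55, and not in palbociclib (-0.11, adjusted p = 0.223) or alisertib (-0.08, adjusted p = 0.407).

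The other tail genes differed by drug. MED16 was at 35.4, 35.0 and 20.0 CPM at day 0 and at 16.8, 17.7 and 15.1 CPM in palbociclib, without overlap (-0.87 ± 0.19, adjusted p = 0.00346). It was also called lower in doxorubicin and alisertib, where the libraries overlapped the lowest day 0 library. Against day 7 MED16 was called in palbociclib alone (-0.39, adjusted p = 0.0172). MED15, a receptor of SREBP activators, was not called against day 0 in any drug (-0.17 to 0.26) and was called higher against day 7 in bleomycin (0.57), doxorubicin (0.42) and palbociclib (0.37). MED25 was called lower in TVB-3166 against day 0 (-0.38, adjusted p = 0.0205) and not against day 7 (-0.06), where it was called higher in bleomycin (0.32) and palbociclib (0.27).

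**Figure D4:**
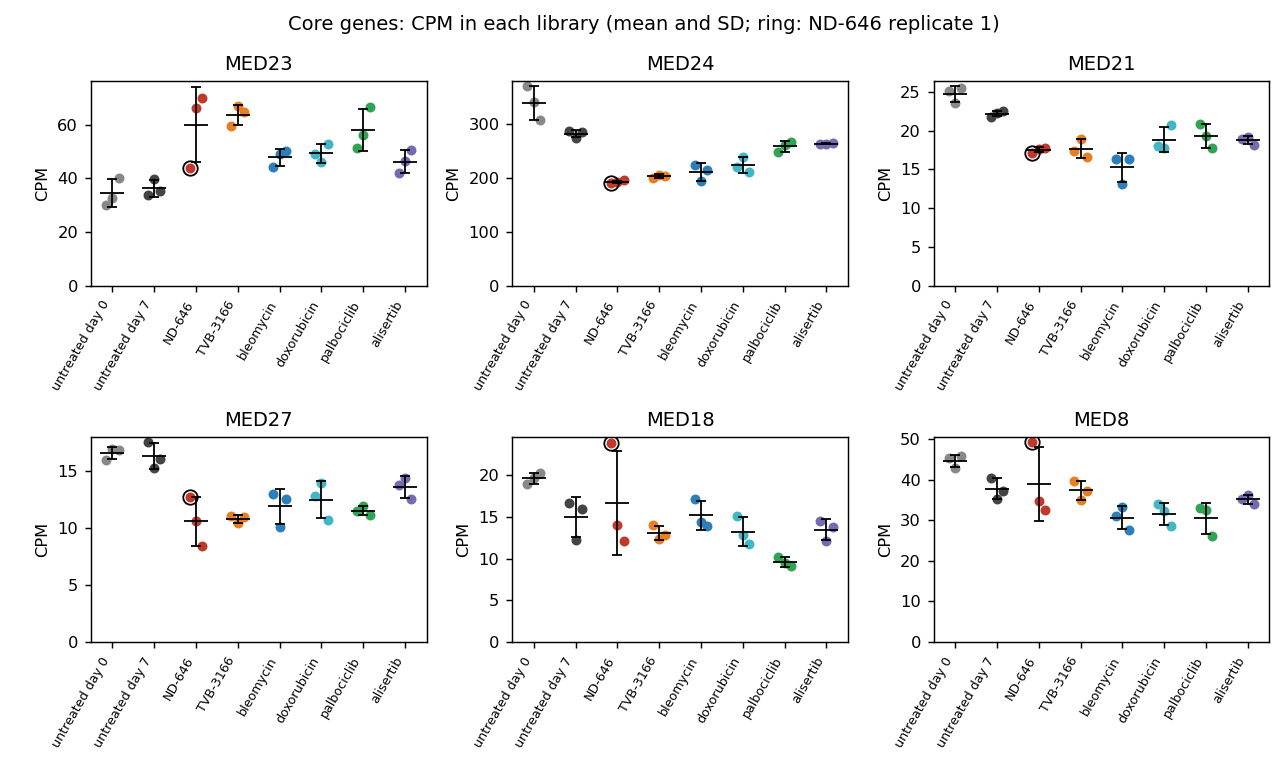
CPM of 6 core genes (y axis, from 0, one scale per gene) in each library of the 8 groups (x axis); points are libraries, horizontal bars the mean and whiskers the SD of 3, and the ring marks ND-646 replicate 1. MED23 lies above and MED24 and MED21 lie below the day 0 libraries in all 18 drug libraries, and MED18 is lowest in palbociclib, at 9.10 to 10.2 CPM.

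In the head module, which contacts the polymerase and general factors, every call against day 0 was a fall. Of its 7 genes, 0 were called lower in ND-646, 4 in doxorubicin and 3 in each other drug. Over the 6 drugs, 18.8% to 27.7% of all genes were called lower and 17.7% to 27.4% higher. MED18 was at 18.9, 19.7 and 20.2 CPM at day 0 and at 10.2, 9.46 and 9.10 CPM in palbociclib, a log2 fold change of -1.03 ± 0.12 (adjusted p = 5.71e-05). No other core gene passed a 2-fold change against day 0. MED18 was also lower in TVB-3166 (-0.58), doxorubicin (-0.56), alisertib (-0.54) and bleomycin (-0.36, adjusted p = 0.0459). The bleomycin call was lost in 5 of 6 fits with a library left out and with other size factors. Against day 7, where MED18 was at 16.7, 12.3 and 15.9 CPM, MED18 was called in palbociclib alone (-0.63, adjusted p = 0.00359).

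MED8, which anchors MED18 to the head, fell in the same 5 groups, with log2 fold changes of -0.55 in palbociclib, -0.53 in bleomycin, -0.49 in doxorubicin, -0.35 in alisertib and -0.25 in TVB-3166. Against day 7, 4 of these 5 calls were lost: MED8 was called in palbociclib alone (-0.30, adjusted p = 0.0414), with values from -0.28 to -0.01 in the other 4. In ND-646 both genes were split by library: MED18 was at 23.8, 14.0 and 12.2 CPM and MED8 at 49.3, 34.7 and 32.6 CPM. Without replicate 1, the first of each, they were lower than day 0 there too (-0.58, adjusted p = 0.00562, and -0.41, adjusted p = 0.0103). MED11 fell in bleomycin (-0.54 ± 0.16, adjusted p = 0.0179) and doxorubicin (-0.47 ± 0.13, adjusted p = 0.012), with libraries at 8.31, 7.95 and 6.76 CPM and 8.11, 7.66 and 8.28 CPM against 10.8, 10.9 and 12.0 CPM at day 0. Leaving out bleomycin replicate 3 or day 0 replicate 3 ended the bleomycin call. Against day 7 MED11 was called in both (-0.58 and -0.51) and in palbociclib (-0.35, adjusted p = 0.0373). MED6 was called lower in TVB-3166, palbociclib and alisertib (-0.32, -0.32 and -0.34) and MED22 in doxorubicin (-0.36), while MED17 and MED20 were not called in any drug. All 3 MED6 calls were lost against day 7 (-0.18 to 0.05 over the 6 drugs), and without ND-646 replicate 1 MED6 was lower than day 0 in ND-646 too (-0.40, adjusted p = 0.0203).

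In the middle module and the link between head and tail, MED21 and MED27 fell most often. MED21, a small subunit that pairs with MED7, was at 25.1, 23.5 and 25.5 CPM at day 0 and at 16.4, 13.1 and 16.3 CPM in bleomycin, where it fell by 0.69 on the log2 scale (adjusted p = 0.00229). It was called lower in all 6 drugs against day 0 (-0.36 to -0.69), as were 7.79% of all genes. Against day 7 it was called lower in TVB-3166 and bleomycin. MED7 itself was not called in any drug (-0.05 to 0.17).

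MED27 was at 15.9, 16.9 and 16.8 CPM at day 0 and at 12.7, 10.6 and 8.38 CPM in ND-646 and 11.0, 10.4 and 11.0 CPM in TVB-3166. Against day 0 it was lower in 5 drugs (-0.65 in ND-646, -0.61 in TVB-3166, -0.47 in bleomycin, -0.39 in doxorubicin and -0.52 in palbociclib) and not called in alisertib (-0.29, adjusted p = 0.0643). Those 5 were called against day 7 too. Its ND-646 call, like that of MED21, was lost in 5 of 6 fits with a library left out; without ND-646 replicate 1 they were at -0.80 and -0.48 (adjusted p = 0.0021 and 0.00737). MED28, not called against day 0, was lower than day 7 in ND-646 (-0.41), TVB-3166 (-0.30) and alisertib (-0.32), and MED31 in bleomycin (-0.68, adjusted p = 0.0235). MED30 was called in alisertib alone, where it rose from 11.2, 12.5 and 12.0 CPM to 16.7, 19.3 and 18.1 CPM (0.60 ± 0.12, adjusted p = 0.00328), but day 7 libraries were at 13.3, 17.2 and 16.8 CPM and it was not called against them. MED29 rose in TVB-3166 (0.27, adjusted p = 0.033), a call lost in 4 of 6 fits with a library left out.

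MED14, MED1 and MED26 were not called against day 0 in any drug. The scaffold MED14 was at 63.4, 64.1 and 75.5 CPM at day 0, and its log2 fold changes lay between -0.18 and 0.10. MED1 was at 872, 962 and 1016 CPM in TVB-3166 and at 1344, 1358 and 1329 CPM in bleomycin, against 1418, 1059 and 1078 CPM at day 0, and was called higher in bleomycin against day 7 (0.34, adjusted p = 0.013). MED26, which recruits elongation factors, lay at 5.26 to 10.5 CPM in all libraries and was called higher in doxorubicin against day 7 (0.44, adjusted p = 0.0277).

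FASTIS was then set against the other TIS groups, as the mean of ND-646 and TVB-3166 minus the mean of the other 4 drugs over 18 libraries, to ask which members differ by kind of senescence. Here 8 members were lower and 6 higher, where 24% of 14052 genes were called lower and 26.1% higher. The kinase module held 4 of the lower calls and none of the higher ones, with a median of -0.35 against 0.06 for the core and 0.02 for all genes. MED12L averaged 0.702 CPM in FASTIS and 2.48 CPM in the other TIS groups, and its 6 FASTIS libraries, at 0.383 to 1.00 CPM, did not overlap the other 12, at 1.71 to 3.84 CPM (-1.82 ± 0.19, adjusted p = 6.42e-07).

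MED12 (31.2 against 47.3 CPM) and CCNC (56.0 against 72.2 CPM) did not overlap between the sides either. Their log2 fold changes were -0.58 ± 0.12 (adjusted p = 0.000931) and -0.35 ± 0.05 (adjusted p = 4.21e-05). CDK8 averaged 18.5 against 23.9 CPM (-0.36 ± 0.07, adjusted p = 0.000499), and its highest FASTIS library, at 21.8 CPM, lay above the lowest of the others, at 21.5 CPM. All 4 calls held with each of the 18 libraries left out. CDK19 (0.10, 95% confidence interval -0.06 to 0.27), MED13 (-0.10, -0.37 to 0.16) and MED13L (-0.13, -0.40 to 0.14) were not called. Without ND-646 replicate 1, MED13 was at 0.04 (-0.09 to 0.18) and MED13L at 0.02 (-0.10 to 0.15), again not called. The median of the kinase module was then -0.32, and that of the core 0.02.

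**Figure D5:**
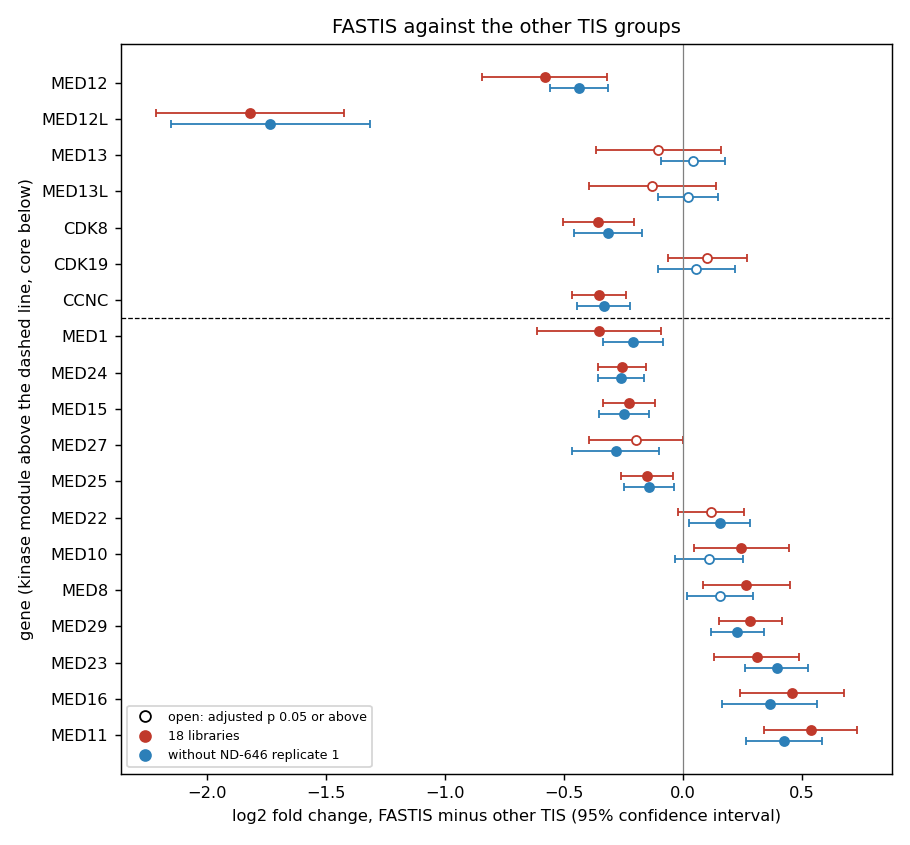
Log2 fold change with 95% confidence interval (x axis) of FASTIS against the other TIS groups for the 7 kinase module genes and the core genes called in either fit (y axis), with all 18 libraries in red and without ND-646 replicate 1 in blue; filled points have an adjusted p under 0.05. MED12L lies at -1.82 and -1.73, and MED12, CDK8 and CCNC lie below 0 in both fits.

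No core gene that was called separated the libraries fully, so those named here were chosen after their values were seen. The share of all genes whose libraries do not overlap is not reported here, for this or any other comparison. Non-overlap is therefore a description only. Higher in FASTIS were MED11 (12.7 against 8.88 CPM, 0.54 ± 0.09, adjusted p = 0.000144), MED16 (0.46), MED23 (0.31), MED29 (0.28), MED8 (0.27) and MED10 (0.24). Lower were MED1 (-0.35, adjusted p = 0.0246), MED24 (-0.26), MED15 (-0.23) and MED25 (-0.15). MED8 was called lower against day 0 in 5 drugs and MED16 in 3, as given above. Without ND-646 replicate 1, MED8 and MED10 were no longer called (0.15 and 0.11), MED22 was called higher (0.15) and MED27 lower (-0.28), which made 5 higher and 9 lower, where 25.2% of genes were called higher and 25.6% lower. MED1 was then at -0.21 and MED12 at -0.44. The call of MED1 was lost without TVB-3166 replicate 1 and that of MED25 without TVB-3166 replicate 2. CXCL16 on the opposite strand covers 8.97% of the MED11 transcript.

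TVB-3166 and ND-646 act on successive enzymes of the same pathway and were used at the same concentration (250 nmol/L), which was not matched for effect. Between them, 0 members were called in either direction by edgeR and by DESeq2, and 0 at an unadjusted p under 0.05, where 0.520% of genes were called higher and 0.198% lower. The intervals leave room for sizeable differences. That of MED12L was 0.66 (95% confidence interval -0.14 to 1.46), that of MED12 0.04 (-0.64 to 0.73) and that of MED13L -0.11 (-0.81 to 0.59), while MED24 differed by 0.08 and CCNC by 0.02 (-0.27 to 0.32). Without ND-646 replicate 1, MED13L was lower in TVB-3166 (adjusted p = 0.0153).

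Related lists were read beside the members. Of 12 RNA polymerase II subunits, none was called higher in any drug, and 2 were called lower in ND-646, 9 in alisertib, 9 in doxorubicin, 10 in TVB-3166, 10 in palbociclib and 11 in bleomycin. Without ND-646 replicate 1, 11 were called lower in ND-646. For this and the lists that follow, 18.8% to 27.7% of all genes were called lower and 17.7% to 27.4% higher over the 6 drugs. The largest subunit, POLR2A, fell by 1.08 in ND-646 and by 0.70 in TVB-3166 on the log2 scale, and POLR2L by 1.75 in bleomycin; without ND-646 replicate 1, POLR2A was at -0.84 in ND-646. Of 9 genes of the other transcription kinases, their cyclins and the assembly factor MNAT1, 1 was called higher and 1 lower in ND-646, 2 and 2 in TVB-3166, 3 and 0 in bleomycin, 3 and 0 in doxorubicin, 4 and 1 in palbociclib, and 0 and 1 in alisertib. CCNT1, the cyclin of the elongation kinase CDK9, rose by 0.74 in bleomycin, and CCNK, the cyclin of CDK12, fell by 0.60 in ND-646 and was at -0.49 there without replicate 1 (adjusted p = 0.0331). Without that replicate 2 genes of this list were called higher and 3 lower. Against day 7, 1 was called higher and 0 lower in ND-646, 2 and 1 in TVB-3166, and 4 and 0 in bleomycin. There were 1 and 0 in doxorubicin, 3 and 0 in palbociclib, and 0 and 0 in alisertib.

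Of 11 activators that work through Mediator, 3 were called higher and 3 lower in ND-646, 3 and 4 in TVB-3166, 4 and 4 in bleomycin, 2 and 3 in doxorubicin, 2 and 4 in palbociclib, and 3 and 3 in alisertib. SREBF1, which drives lipogenic genes and binds MED15, rose by 1.90 in ND-646 and 1.71 in TVB-3166 on the log2 scale, and was higher in FASTIS than in the other TIS groups by 1.27. SMAD3 rose in all 6 drugs (1.07 to 2.73) and THRA, a nuclear receptor bound by MED1, fell in all 6 (-0.51 to -1.52). ELK1, the activator that binds MED23, was lower in 5 drugs (-0.36 to -0.60) and was at -0.30 in ND-646, where it was called without replicate 1 (-0.37, adjusted p = 0.0286) and not with it. Without that replicate 4 of the 11 were called higher and 4 lower in ND-646, with SREBF1 at 1.85. Against day 7, 3 were called higher and 3 lower in ND-646, 6 and 3 in TVB-3166, and 5 and 3 in bleomycin. There were 2 and 3 in doxorubicin, 2 and 3 in palbociclib, and 3 and 0 in alisertib.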

How the data were processed

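Members and gene lists were chosen with earlier results of these data known. Per the labels and the study's methods, the authors mapped reads with HISAT2 against GRCh37, ran StringTie for assembly and DESeq2 for comparisons, and deposited raw counts of reads for each gene, not normalized; the labels name a stranded mRNA kit and the methods a stranded total RNA kit, and the counting settings are not given in the sources used here. The table has no count below 1, so genes without reads in a library are not analysed here.

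The counts went into edgeR 4.0.16 under R 4.3.3 (filterByExpr, TMM, glmQLFit and glmQLFTest, 2-sided), with only the groups compared in each fit, or all 18 drug libraries for FASTIS against the other TIS groups. The tests were checked on simulated data. Alternatives were DESeq2 1.42.0, other size factors, no filter, all 24 libraries in 1 fit, a replicate block, day 7 as the reference, a 2-fold rule and each library left out. Transcript lengths came from MANE Select (33 of 33 members matched). The named genes are the 7 kinase genes, MED14, MED1, MED15 and MED26, and in each comparison the 3 core genes with the largest rise and the 3 with the largest fall among called genes without overlap between libraries. Others are named for their list or, where stated, after their values were seen. The related lists are given without 1 gene, which is not reported here. Same-numbered libraries deviated together in TVB-3166 against ND-646 (correlations 0.411, 0.251 and 0.334). In FASTIS against the other TIS groups the correlations were 0.451, 0.091 and 0.538. No source says whether the numbers pair the samples, and correlations cannot decide it. The block changed no call in TVB-3166 against ND-646.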

Additional observations from a re-analysis of the deposited data

How the results depend on the processing

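DESeq2, other size factors and no filter on low counts kept every count of called members within 1.5 times. By the rule of a fold of at least 2 with an unadjusted p under 0.05, 0 members were higher in any comparison, and 1 was lower in ND-646, TVB-3166, palbociclib and FASTIS against the other TIS groups, and 0 in bleomycin, doxorubicin and alisertib. With all 24 libraries in 1 fit, ND-646 gave 3 higher and 10 lower and bleomycin 5 higher. The share of all genes called in that fit, with the replicate block or with a library left out is not reported here. The exception is ND-646 replicate 1, for which shares are given above for ND-646 against day 0 and for FASTIS. These counts therefore cannot tell a change in members from a change in calls over all genes. With untreated day 7 as the reference, TVB-3166 gave 7 lower, bleomycin 8 higher, doxorubicin 5 higher and 4 lower, palbociclib 3 higher, and alisertib 1 higher and 1 lower. With that reference MED18 in bleomycin was at 0.031, MED25 in bleomycin at 0.32 and MED25 in palbociclib at 0.27, each turned in sign. The cause was not tested.

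With each library left out, the counts of members higher and lower ranged from 0 to 3 and 2 to 9 in ND-646, 1 to 2 and 8 to 10 in TVB-3166, 2 to 5 and 3 to 6 in bleomycin, 3 to 3 and 5 to 8 in doxorubicin, 1 to 1 and 5 to 8 in palbociclib, 1 to 2 and 3 to 7 in alisertib, and 5 to 7 and 7 to 9 in FASTIS against the other TIS groups. TVB-3166 against ND-646 gave 0 higher and 0 to 1 lower, the 1 without ND-646 replicate 1, and day 7 against day 0 gave 0 and 0. The ND-646 count of lower members was 2 without any one day 0 library or ND-646 replicate 2, 3 without ND-646 replicate 3, and 9 without ND-646 replicate 1. Bleomycin lower was 3 without bleomycin replicate 3 and bleomycin higher 5 without day 0 replicate 1. Doxorubicin lower was 5 without day 0 replicate 2 or doxorubicin replicate 1, and alisertib lower 3 without alisertib replicate 3.

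In comparisons other than TVB-3166 against ND-646, the replicate block gave 5 lower in ND-646, 10 in TVB-3166 and 7 in bleomycin. It gave 7 higher and 9 lower in FASTIS against the other TIS groups. Depth limits MED12L most, at 9 to 30 counts in FASTIS libraries. Paralogs and genes that overlap on the opposite strand, of which TXNDC17 covers 75.6% of the MED31 transcript, may share reads.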
